A study of Mus musculus with 13 samples.

Results

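The subject is how far wild-type (WT) mouse pre-iPSCs stood from embryonic stem cells (ESCs) after 10 days of treatment. The comparison set the 2 libraries of WT cells at day 10, replicates A and B, against the single ESC library, so 3 of the 13 RNA-sequencing libraries of the series, and covered 15087 tested genes of the 20325 listed. Pre-iPSCs are cells derived from mouse embryonic fibroblasts that stopped partway to the induced pluripotent state. The WT day 10 cells were grown in ESC medium with 15% serum and leukaemia inhibitory factor (LIF), and received ascorbic acid at 50 µg/mL together with CHIR-99021, an inhibitor of the kinase GSK3, and PD-0325901, an inhibitor of the kinase MEK, a mixture abbreviated AA+2i. They were split on day 4. The ESC library came from the wild-type V6.5 line in the same medium. Its label names AA+2i and a 0 hour time point, while the protocol says with or without the compounds, so whether the ESCs had received the inhibitors is uncertain. WT cells at day 0, titled DMSO after the solvent, and AA+2i-treated day 10 cells with a knockout (KO) of Kdm3b, an eraser of histone H3 lysine 9 methylation, had 2 libraries each and served as further reference points. WT cells treated for 2 days, with ascorbic acid at the same dose and also 2 libraries, were compared with ESC too. KO cells at day 0, titled DMSO, and KO cells treated for 2 days at that dose entered the fit as well. Kdm3b itself was at 19.9 and 41.1 CPM (counts scaled to the size of the library) in KO at day 10, 191 and 190 in WT at day 10 and 145 in ESC. The labels do not say whether A and B were separate cultures, so p-values measure only the spread between these libraries, which may be technical.

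Mouse stem cells hold a range of pluripotent states. The naive state is sustained by LIF acting through STAT3 and by blocking ERK and GSK3, and is marked by factors such as Nanog, Esrrb, Tbx3 and Tfcp2l1. Cells in serum without the inhibitors carry more ERK signalling and more of the de novo DNA methyltransferases, and some of them lean towards the primed state of the epiblast after implantation.

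The libraries held 18144516 (WT day 10 A), 15460134 (B) and 20083825 (ESC) expected counts. All 8 ESC markers checked, among them Pou5f1, Nanog and Esrrb, had counts in the 3 libraries, and their summed level was 4270 and 4970 CPM at day 10 against 6750 in ESC. WT at day 0 also had counts for all 8, summing to 4320 and 7940 CPM, of which Pou5f1 held 4060 and 7450. KO at day 10 had counts for all 8 too, summing to 2930 and 3470 CPM. Presence and sum of these markers thus did not set WT day 10 apart from day 0. The 7 fibroblast markers summed to 68.8 and 96.1 CPM at day 10 and to 261 CPM in the ESC library. In contrast, the 30 genes of the wider fibroblast list, described further on, summed higher at day 10. Twist2 was at 0 in day 10 A, and none of the 7 was at 0 in ESC. The 4 trophectoderm, 4 primitive endoderm and 3 endothelial markers checked summed to 29.9 and 30.9 against 24.9 CPM, 5.76 and 5.55 against 5.54, and 9.81 and 10.4 against 9.61. The longer lists for these cell types summed higher at day 10, at 125 and 130 against 60.8, 1180 and 1030 against 714, and 133 and 121 against 58.0 CPM. Transcript length also differed between the libraries: the mean length weighted by TPM was 1959 and 1924 bases at day 10 and 1670 in ESC. The median log2 difference, day 10 minus ESC, was -0.47 in the shortest eighth of genes and 0.46 in the longest. Calls were therefore repeated with a correction for length, and a call of a named gene that it ended is given with that gene. In bulk RNA, fewer cells of a kind and less RNA per cell cannot be told apart.

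WT day 10 cells were closer to each other than to the stem cell library. The median gene differed by 0.147 on the log2 scale between A and B, by 0.619 (A) and 0.585 (B) between day 10 and ESC, and by 0.686 and 0.934 between WT day 0 and ESC. Day 10 lay 0.63 to 0.663 from day 0, about as far as from ESC. The 2 day 0 libraries lay 0.438 apart and had mean transcript lengths of 1762 (A) and 2309 (B) bases. Of 11450 genes with at least 5 CPM on a side, 8502 (74.3%) lay within 2-fold of the ESC library in both day 10 libraries. At least 2-fold higher in both were 1394 genes (9.24% of those tested) and at least 2-fold lower 904 (5.99%). By edgeR's quasi-likelihood test at a false discovery rate (FDR) under 0.05, 2416 genes (16.0%) differed, of which 1405 (9.31%) were higher at day 10 and 1011 (6.70%) lower. Counts within the gene lists that follow are read against these last percentages and against a median over all genes of 0.0135 on the log2 scale. This fit covered all 13 libraries and lent the lone ESC library the spread of the others. A call says that the ESC library lay outside that spread, not that stem cells as a kind do. Without WT day 10 A the count was 759 and without B it was 1109. With the day 10 and ESC libraries alone, whose replicates lay closer together, it was 8222. With a block for the replicate letter at days 0 and 2 only it was 8706. The same test against ESC called 34.0% of genes for WT day 0, 34.4% for WT day 2 and 35.7% for KO day 10. Between WT day 10 and day 0 it called 33.2%, with 3092 of 15087 genes higher at day 10 and 1924 lower. Counts of list members that had risen or fallen from day 0 are read against these. Between KO and WT at day 10 it called 30.8%. The 4 comparisons with ESC share that library.

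**Figure D1:**
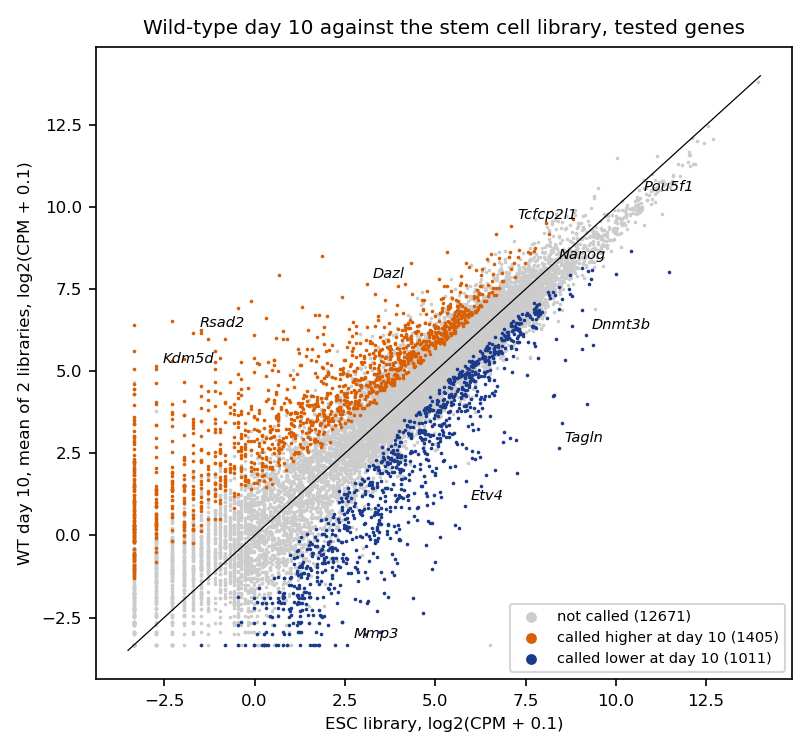
Level of each of the 15087 tested genes in the ESC library (horizontal axis) and in WT at day 10 (vertical axis, mean of 2 libraries), both as log2(CPM + 0.1). Each point is a gene, the line marks equal levels, and colours mark the 1405 genes called higher and the 1011 called lower at day 10.

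Most naive pluripotency genes had reached or passed the stem cell level. Of 20 tested, 6 were called higher than ESC (Tcfcp2l1, Tbx3, Pecam1, Nr5a2, Stat3 and Klf5) and 1 lower (Gbx2). The median was 0.83 on the log2 scale, beside 0.0135 over all genes, and 13 of the 20 had risen from WT day 0. Nanog, the factor that guards the naive state, held 280 and 316 CPM at day 10 and 305 in ESC, after 2.86 and 1.36 at day 0 (log2 fold change against ESC -0.04, SE 0.340, FDR = 0.958). The orphan receptor Esrrb stood at 385 and 413 CPM against 303, and the zinc finger gene Zfp42, also called Rex1, at 167 and 215 against 222. Both day 10 libraries were above ESC for Esrrb and below it for Zfp42, and neither difference passed the test (FDR = 0.628 and 0.834). Without day 10 A or B 4 genes of the list were called higher, the calls of Tbx3 (FDR = 0.0778 and 0.0691) and Klf5 (0.0913 and 0.0591) being among those lost.

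Tcfcp2l1, the files' symbol for Tfcp2l1, a STAT3 target that can hold cells in the naive state, held 670 and 717 CPM against 136 in ESC and 20.1 and 32.6 at day 0. Its log2 fold change against ESC was 2.35 (SE 0.468, FDR = 0.0121). Tbx3, a T-box repressor of differentiation, held 109 and 122 CPM against 25.3 (log2 fold change 2.19, SE 0.510, FDR = 0.0218). The adhesion molecule Pecam1 held 205 and 187 CPM against 57.8 (1.76, SE 0.315, FDR = 0.00784), and the nuclear receptor Nr5a2 55.5 and 60.7 against 20 (1.54, SE 0.237, FDR = 0.00418). These lay above ESC in both libraries, which adds nothing to the calls, since they were taken from called genes. Gbx2, a homeobox gene that also responds to STAT3, was the exception at 2.96 and 4.62 CPM against 20.3 (-2.42, SE 0.328, FDR = 0.00224), and it had not been called different from its day 0 level of 6.07 and 6.21 CPM. Prdm14, Klf4 and Fbxo15 were more than 2-fold above ESC in both libraries without passing the test (FDR = 0.0802, 0.243 and 0.108). Stat3 itself was at 176 and 161 CPM against 73.6 (1.19, SE 0.205, FDR = 0.00661), much as at day 0 (151 and 178). Of the 13 LIF and STAT3 genes tested, which share Klf4, Tcfcp2l1 and Stat3 with the naive list, 2 were called higher and 0 lower, with a median of 0.67. The STAT3 feedback inhibitor Socs3 was at 209 and 192 CPM against 122 (FDR = 0.0836). The Tbx3 call was lost without day 10 A (FDR = 0.0778) or B (0.0691).

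Genes of the wider pluripotency network included a group short of the ESC level. Of 22 general pluripotency genes, 5 were called lower (Lin28a, Utf1, Lin28b, Dppa4 and Mycn) and 1 higher (Etv5, an ETS factor also on the ERK list), and the median was -0.46. Pou5f1, the core factor Oct4, held 1190 and 1320 CPM against 1540 in ESC (FDR = 0.783), down from 4060 and 7450 at day 0. Its partner Sox2 held 357 and 438 CPM against 399 (FDR = 1.0). Lin28a, an RNA-binding protein that blocks let-7 processing, held 44.0 and 58.5 CPM against 532 (log2 fold change -3.38, SE 0.560, FDR = 0.00739). It had nonetheless risen from 1.25 and 1.11 CPM at day 0. Utf1, a chromatin factor of stem cells, was at 38.3 and 42.6 CPM against 389 (-3.27, SE 0.504, FDR = 0.00784), and Lin28b at 5.45 and 6.90 against 57.3 (-3.21, SE 0.505, FDR = 0.00455). Mycn, the Myc family member of early embryos, was at 79.8 and 83.4 CPM against 208 and had stayed close to its day 0 values of 67.2 and 81.7 CPM. Dppa4 had risen from 0.274 and 0.101 CPM to 49.2 and 52.3, against 152 in ESC (FDR = 0.0319). The list had 0 genes called higher and 2 lower without day 10 A, and 0 and 3 without B. The calls of Utf1 (FDR = 0.0719 and 0.0533), Dppa4 (0.162 and 0.128) and Etv5 (0.159 and 0.0995) were lost without either library and that of Lin28a without A (0.0698), while Etv5 was also lost without any one of the WT day 0, WT day 2 and KO day 10 libraries (0.0535 to 0.0679) and with length corrected (0.109).

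The usual reprogramming factors are Pou5f1, Sox2, Klf4 and Myc. Counts per gene do not separate a delivered copy from the cell's own gene. Of the 4, 0 were called different from ESC by edgeR, 1 was higher at an unadjusted p under 0.05 and by DESeq2, and their median was 0.78. Klf4 went from 870 and 2020 CPM at day 0 to 336 and 303, against 108 in ESC. Myc went from 753 and 1560 CPM to 147 and 125, against 25.1 in ESC (log2 fold change against ESC 2.44, SE 0.820, FDR = 0.0771). Both were still above ESC in each library, and the fall from day 0 was called for Pou5f1, Klf4 and Myc (FDR = 0.0144, 0.0327 and 0.00578).

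**Figure D2:**
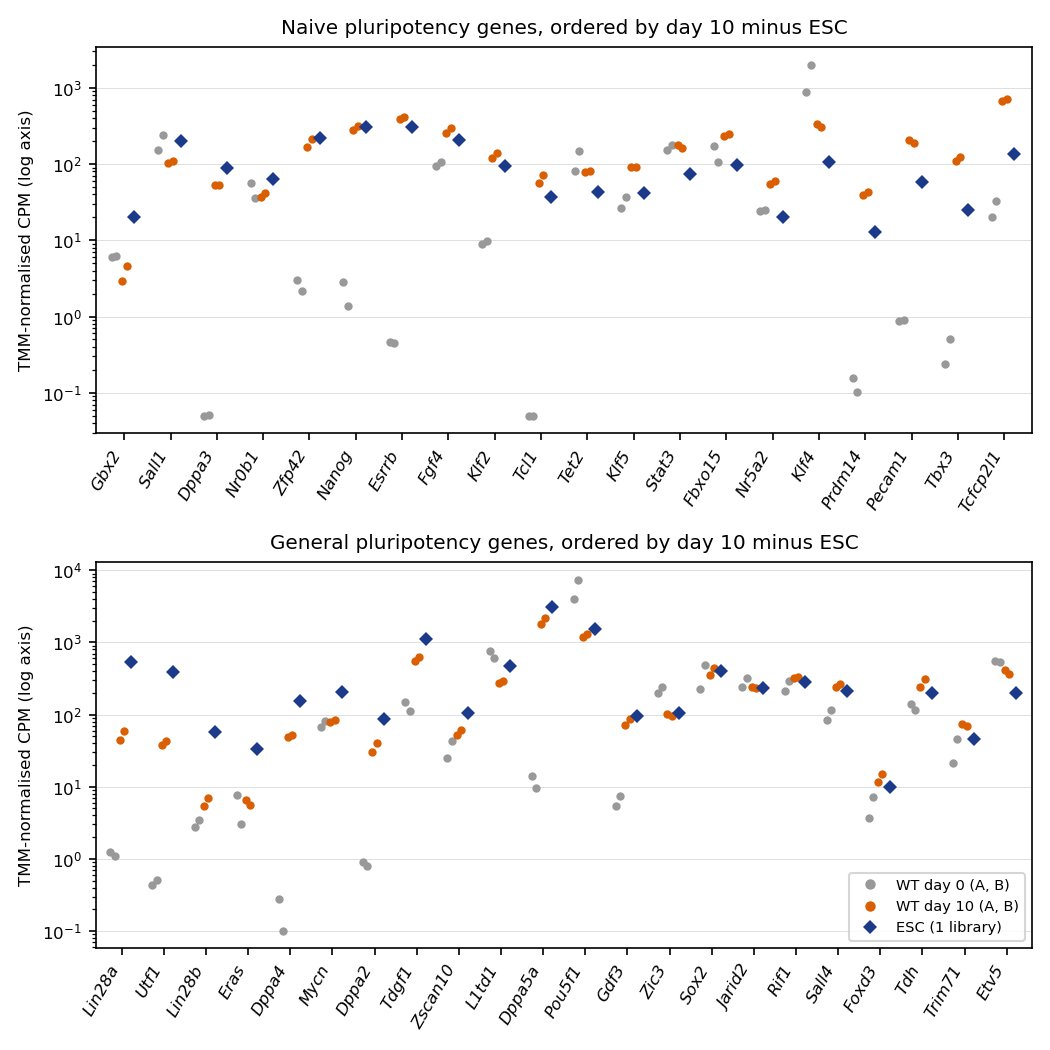
Normalised CPM (log axis) of the 20 naive (top) and 22 general pluripotency genes (bottom), ordered by the difference between WT day 10 and ESC. Grey points are the 2 WT day 0 libraries, orange points the 2 WT day 10 libraries and blue diamonds the ESC library, and values under 0.05 CPM are drawn at 0.05. Tcfcp2l1 at the right stands above ESC (670 and 717 against 136 CPM) and Lin28a in the general list under it (44.0 and 58.5 against 532).

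Genes that report ERK signalling stood well below the stem cell library. ERK induces its own inhibitors, the DUSP phosphatases and the Sprouty and Spred proteins, as well as ETS factors. Of 20 ERK targets, 8 were called lower and 1 higher (Etv5), with a median of -1.15. The ETS factor Etv4 held 1.66 and 1.85 CPM at day 10, 56.4 in ESC and 118 and 114 at day 0 (log2 fold change against ESC -5.00, SE 0.204, FDR = 8.64e-06). Dusp6, a phosphatase of ERK, held 4.98 and 4.81 CPM against 68.1 in ESC (-3.80, SE 0.212, FDR = 5.63e-05), and Dusp4 2.70 and 3.51 against 19.3 (-2.64, SE 0.373, FDR = 0.0028). Spry1 was at 6.85 and 7.52 CPM against 35.2 and Spred1 at 25.0 and 20.3 against 53 (FDR = 0.00538 and 0.00636). The G1 cyclin Ccnd1 was at 119 and 105 CPM against 233 (-1.06, SE 0.228, FDR = 0.0161). Both day 10 libraries lay below the single ESC value for all 6, which adds nothing to the calls, since the 6 were taken from called genes. Etv4, Dusp6, Dusp4, Spred1 and Ccnd1 were also called lower than at day 0, and Spry1, at 4.66 and 7.82 CPM there, was not. Immediate early genes differed between A and B: Egr1 was at 8.41 and 0.616 CPM and Fosb at 12.7 and 0.678, against 60.4 and 14.5 in ESC. Of the list, 5 genes were called lower without day 10 A and 6 without B, with 0 higher. Without A and B in turn FDR was 0.0722 and 0.12 for Ccnd1, 0.159 and 0.0995 for Etv5 and 0.05 and 0.0324 for Spry1, and Etv5 lost its call without any one of the WT day 0, WT day 2 and KO day 10 libraries (0.0535 to 0.0679).

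Markers of the primed epiblast and of gastrulation were mostly below ESC as well. Of 16 tested, 8 were called lower and 2 higher, and the list had the lowest median of the 33, at -2.30. Pou3f1, an epiblast and neural POU factor, held 3.17 and 2.65 CPM against 44.6 in ESC (log2 fold change -3.93, SE 0.316, FDR = 0.000228), and Sox3 held 0.883 and 1.05 against 10.8 (-3.47, SE 0.591, FDR = 0.0111). Fgf5, the classical marker of the primed state, was low in all 3 libraries, at 0.104 and 0.246 CPM against 2.82 (FDR = 0.029), and Fgf8 was at 0.363 and 0.431 against 7.05 (FDR = 0.0194). Otx2, a factor of the same transition, did not follow this order: it held 28.4 and 23.8 CPM against 17.0 (FDR = 0.324). The 2 called higher were Gsc, a gene of the organizer region of the embryo (4.83 and 5.67 CPM against 0.731), and Evx1, a homeobox gene of the primitive streak, with 42 counts over both day 10 libraries and 1 in ESC, 22.7 times the ESC level (exact 95% counting interval 3.85 to 916). Only 2 genes of the list were called lower without day 10 A and 3 without B, with 0 higher. Sox3 (FDR = 0.103 without A and 0.0723 without B), Fgf5 (0.193 and 0.108), Fgf8 (0.157 and 0.125), Gsc (0.0898 and 0.0904) and Evx1 (0.118 and 0.134) lost their calls, Evx1 also without any one of the WT day 0, WT day 2 and KO day 10 libraries (0.0587 to 0.0722), and DESeq2 did not call Fgf5 or Fgf8.

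In the Nodal pathway the ligand lay within 2-fold of ESC and part of its targets did not. Of 13 genes tested, 3 were called lower (Lefty1, Foxh1 and Bmp4, the last a BMP ligand kept on the list) and 0 higher, with a median of -0.51. The ligand Nodal held 44.1 and 56.5 CPM against 74.9 in ESC, its co-receptor Tdgf1 558 and 634 against 1120, and the extracellular inhibitor Lefty2 143 and 176 against 191 (FDR = 0.631, 0.105 and 0.839). Lefty1, the neighbouring inhibitor and target, held 47.2 and 63.5 CPM against 657 (log2 fold change -3.57, SE 0.473, FDR = 0.00204), although it had risen from 0.274 and 0.202 CPM at day 0. Foxh1, the forkhead partner of SMAD2, held 18.5 and 20.3 CPM against 54.8 (-1.50, SE 0.273, FDR = 0.0084). Bmp4 held 1.56 and 0.924 CPM against 10.8 (-3.10, SE 0.531, FDR = 0.00645). The Foxh1 call was lost without day 10 A (FDR = 0.0648), leaving 2 genes called lower.

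Targets of Wnt signalling, which GSK3 inhibition raises, were not uniformly above ESC. Of 20, 6 were called lower and 2 higher, with a median of -0.70. Axin2, the feedback inhibitor most used as a readout, held 8.36 and 11.6 CPM against 11.8 in ESC (FDR = 0.781). Lef1, a nuclear partner of β-catenin, was at 1.51 and 1.66 CPM against 7.73 (log2 fold change -2.28, SE 0.283, FDR = 0.00148), and the feedback inhibitor Nkd1 at 0.934 and 1.23 against 6.01 (-2.47, SE 0.414, FDR = 0.006). Those called higher were Apcdd1, a membrane inhibitor of Wnt, at 48.9 and 42.0 CPM against 6.43 (2.82, SE 0.394, FDR = 0.00261), and Tnfrsf19, at 42.1 and 43.0 against 7.99 (2.41, SE 0.533, FDR = 0.018). Of 12 BMP targets, 2 were called higher and 0 lower (median 0.80): Smad9, an effector of BMP receptors, at 5.92 and 4.68 CPM against 0.366 (FDR = 0.00435), and the homeobox gene Msx1 at 3.74 and 3.94 against 1.04 (FDR = 0.00496). Id1, the usual BMP readout, was at 86.1 and 80.1 CPM against 30.6 (FDR = 0.0584). Wnt targets called lower and higher numbered 2 and 1 without day 10 A, and 3 and 2 without B. Nkd1 and Tnfrsf19 lost their calls without A (FDR = 0.0592 and 0.0709).

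Of the de novo DNA methylation genes Dnmt3b and Dnmt3l were far short of the stem cell level, while Dnmt3a and the maintenance genes lay within 2-fold of it. Dnmt3b, a de novo methyltransferase, held 65.3 and 72.2 CPM at day 10 against 573 in ESC (log2 fold change -3.06, SE 0.25, FDR = 0.000228), and 25.3 and 30.6 at day 0. Its cofactor Dnmt3l held 17.9 and 20.4 CPM against 310 (-4.02, SE 0.710, FDR = 0.0172), from 0 counts in both day 0 libraries. Dnmt3a, the other de novo enzyme, was at 105 and 84.2 CPM against 167 (FDR = 0.128; with length corrected, FDR = 0.00143). The maintenance enzyme Dnmt1 was at 408 and 402 CPM against 309, its recruiter Uhrf1 at 533 and 536 against 449, and the hydroxylase Tet1 at 391 and 456 against 329 (FDR = 0.374, 0.548 and 0.615). Of 17 genes on the list, 4 were called lower (Dnmt3b, Dnmt3l, the methyl-binding protein Mbd3 and the glycosylase Tdg) and 0 higher, the median was 0.08, and 14 lay within 2-fold. When day 10 A or B was left out 1 gene of the list, Dnmt3b, was called lower, and the calls of Dnmt3l (FDR = 0.123 and 0.0971), Mbd3 (0.116 and 0.095) and Tdg (0.174 and 0.14) were lost. Tdg was also not called without any one of the WT day 2 and KO day 10 libraries (0.06 to 0.0821).

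Histone-modifying genes mostly lay close to ESC. Of 19 genes of H3K9 methylation 18 were within 2-fold, and 2 were called higher: the demethylase Kdm3a, at 183 and 191 CPM against 102 (FDR = 0.0425), and Atf7ip, a partner of SETDB1, at 145 and 120 against 42.3 (FDR = 0.0413). With length corrected Kdm3a was no longer called (FDR = 0.061). Of 19 Polycomb genes, 4 were called higher and 1 lower, the latter not when any one WT library or either KO day 10 library was left out. Those higher included parts of or partners to the repressive complexes: Bmi1 at 30.9 and 32.0 CPM against 8.57 (log2 fold change 1.88, SE 0.182, FDR = 0.000478), Aebp2 at 235 and 249 against 76.6 and Cbx8 at 3.58 and 3.94 against 0.679. Medians of both lists were near 0, at -0.11 and -0.06. The 2 calls on the H3K9 list were lost without day 10 A (FDR = 0.133 for Kdm3a and 0.151 for Atf7ip) and without B (0.104 and 0.0695). Both were lost, too, when either KO day 10 library or WT day 2 A was left out, and Kdm3a without WT day 0 A or B (0.0562 to 0.0692 for Kdm3a and 0.0563 to 0.0688 for Atf7ip).

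Imprinted genes, expressed from the copy of one parent, differed in both directions. Of 34, 5 were called higher and 4 lower, and the median was -0.31. Peg3, a paternally expressed zinc finger gene, held 440 and 360 CPM against 40.3 in ESC (log2 fold change 3.31, SE 0.710, FDR = 0.0159) and its neighbour Usp29 11.5 and 10.8 against 3.13. Plagl1, which encodes a zinc finger regulator of growth, held 74.0 and 87.3 CPM against 11.8 (2.77, SE 0.628, FDR = 0.0195). Lower were Phlda2, a maternally expressed inhibitor of placental growth, at 3.06 and 3.88 CPM against 84.6 (-4.61, SE 0.60, FDR = 0.00187), Nnat at 1.30 and 1.11 against 29.0 (-4.58, SE 0.980, FDR = 0.0157), Mest at 20.4 and 21.3 against 101 (-2.28, SE 0.189, FDR = 0.000237) and Ndn at 8.98 and 8.44 against 17.0. Igf2, the fetal growth factor, was at 126 and 110 CPM against 131 and was not called (FDR = 0.752). The list had 2 genes called higher and 2 lower without day 10 A, and 4 and 2 without B. Peg3 lost its call without day 10 A (FDR = 0.066), and Plagl1 (0.0671 and 0.0597), Nnat (0.113 and 0.0955) and Ndn (0.0999 and 0.119) without either A or B.

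Several contractile and collagen genes were more abundant in the stem cell library than at day 10. Of 28 fibroblast and mesenchymal genes, 8 were called lower at day 10 and 3 higher, with a median of -0.86. Tagln, an actin-binding protein of smooth muscle and fibroblasts, held 8.93 and 3.45 CPM at day 10, 2.16 and 1.77 at day 0 and 341 in ESC (log2 fold change -5.78, SE 0.621, FDR = 0.000805). Acta2, smooth muscle actin, held 11.4 and 6.04 CPM against 121 (-3.79, SE 0.434, FDR = 0.00104), and the collagen gene Col1a2 6.28 and 7.83 against 116 (-4.04, SE 0.710, FDR = 0.00924). Its partner chain Col1a1 was at 46.7 and 73.7 CPM against 105 and was not called (FDR = 0.574). The 3 called higher were the adhesion receptor Cd44, at 210 and 192 CPM against 18.0 (3.48, SE 0.753, FDR = 0.0164), the repressor of E-cadherin Zeb1, at 30.4 and 29.4 against 5.85 (2.35, SE 0.228, FDR = 0.000478), and the matrix protein Tgfbi, at 45.4 and 36.3 against 5.59. The whole list of 30 genes, tested or not, summed to 4020 and 3540 CPM at day 10 and 2680 in ESC. Most of this came through fibronectin, Fn1, at 3110 and 2610 against 1050 (FDR = 0.459). The 7 fibroblast markers, summing to 261 CPM in ESC and 68.8 and 96.1 at day 10, are members of this list. They are thus not separate from the lower calls, which include Col1a2, and their part in those calls was not tested. Leaving out day 10 A left 2 genes of the list called lower and 1 higher, and leaving out B left 4 and 2. Col1a2 (FDR = 0.0808 and 0.0549) and Tgfbi (0.14 and 0.0824) lost their calls without either library and Cd44 without A (0.0643), and Tgfbi also without any one of the WT day 0 and KO day 10 libraries (0.0521 to 0.0706).

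Epithelial genes had switched on by day 10 and in part remained under the ESC level. Of 24, 16 had risen from day 0 and 1 had fallen, while against ESC 8 were called lower and 1 higher (median -1.09). E-cadherin, Cdh1, which joins epithelial and stem cells, held 625 and 580 CPM against 592 in ESC (FDR = 0.985). The tight junction gene Cldn4 was at 213 and 228 CPM against 248 (FDR = 0.865). Cldn7 was at 17.0 and 15.8 against 76.2 (log2 fold change -2.22, SE 0.279, FDR = 0.00155), Crb3, a polarity gene, at 8.41 and 9.06 against 36.7 (-2.07, SE 0.296, FDR = 0.0029), and the splicing factor Esrp1 at 29.2 and 27.0 against 87.5 (-1.64, SE 0.240, FDR = 0.00327). Dsp, a desmosome component, was the one called higher, at 153 and 142 CPM against 35.7 (FDR = 0.0307). Leaving out either day 10 library left 3 genes of the list called lower and 0 higher. Dsp was not called without A (FDR = 0.11) or B (0.0647), nor without either KO day 10 library (0.0517 and 0.0519).

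**Figure D3:**
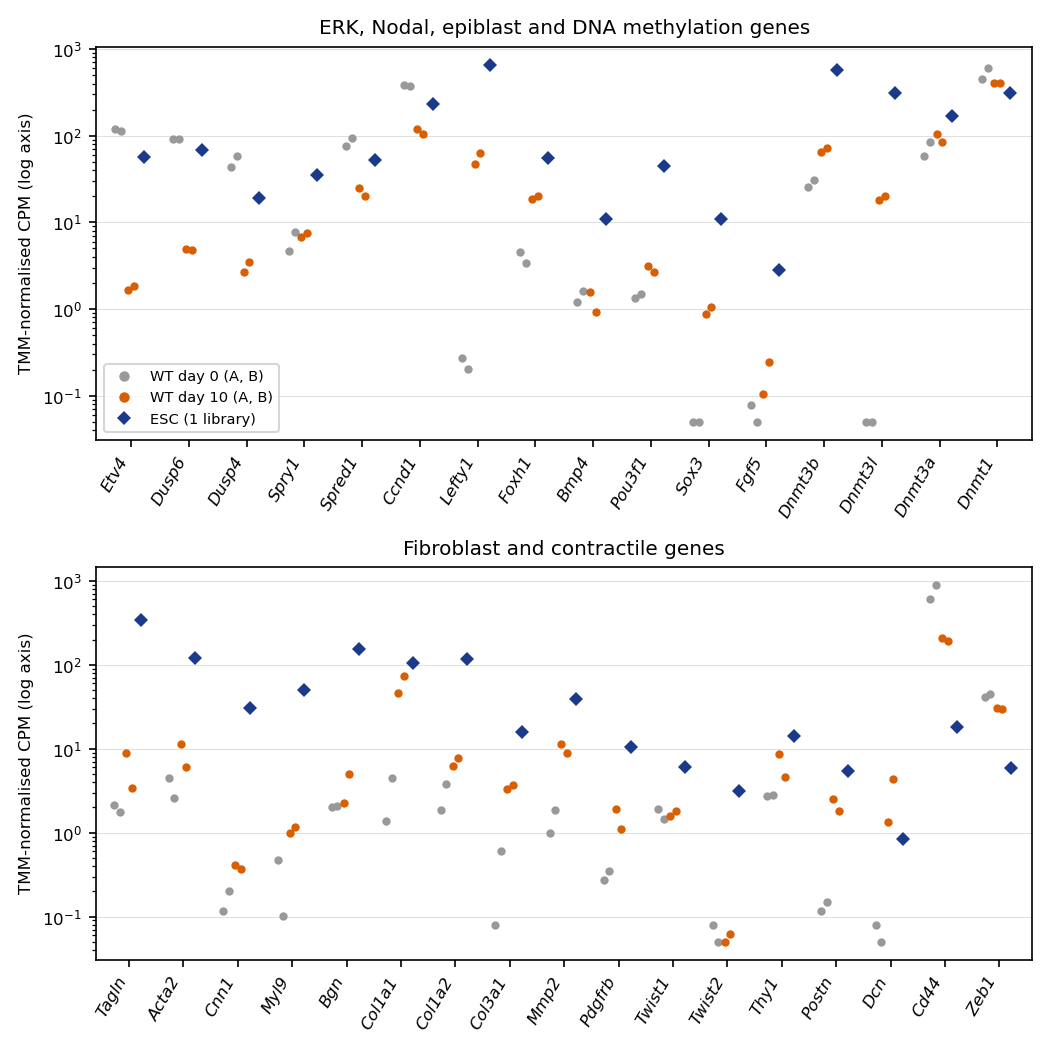
Normalised CPM (log axis) of genes of ERK and Nodal signalling, the epiblast and DNA methylation (top) and of fibroblast and contractile genes (bottom). Grey points are WT day 0, orange points WT day 10 (2 libraries each) and blue diamonds the ESC library, and values under 0.05 CPM are drawn at 0.05. Etv4 (1.66 and 1.85 against 56.4 CPM) and Tagln (8.93 and 3.45 against 341) show the gap to ESC.

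Among named genes that met the 2-fold rule, the 12 with the lowest fold change at day 10 included secreted and contractile proteins. Mmp3, a matrix protease, had 0 counts in both day 10 libraries and 112 in ESC, at least 69.2-fold lower when set against a floor of 3 counts over both. Tmem59l had 1 count over both day 10 libraries and 211 in ESC, a ratio of ESC to day 10 of 391 (95% counting interval 69.4 to 15500). The BMP antagonist Grem1 had 1 count against 157 (ratio 291, interval 51.5 to 11600). The calponin gene Cnn1, another smooth muscle gene, was at 0.415 and 0.370 CPM against 30.3 (log2 fold change -6.24, SE 0.610, FDR = 0.000494). Vrtn (0.208 and 0.123 CPM against 20.7) and Fndc3c1 (0.519 and 0.431 against 31.6) had FDR = 0.00105 and 0.000192. Gfra1, a receptor for the growth factor GDNF, the prolactin family gene Prl2c3, the collagen gene Col10a1, the apolipoprotein gene Apoa2 and the calcium channel gene Cacna1g were also in the group, with ESC levels of 5.28, 5.22, 12.7, 8.62 and 8.67 CPM and day 10 levels of at most 0.246 CPM. Outside the rule and chosen after its values were seen, Mid1, an X-linked ubiquitin ligase gene, had 14.1 and 17.9 CPM at day 10 against 585 in ESC (-5.19, SE 0.583, FDR = 0.000967). Tmem59l and Gfra1 lost their calls without day 10 A (FDR = 0.0642 and 0.0601) and Prl2c3 without A (0.14) or B (0.09), and DESeq2 did not call Tmem59l or Prl2c3.

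Interferon response genes stood above the stem cell library, with a list median second to that of the Y-linked genes, or above it with Y-linked genes at 0 in ESC set at their bounds (3.21 against 2.52). Interferons act through factors such as STAT2 and IRF9, which bind a promoter element called ISRE and switch on antiviral genes. Of 27 genes, 20 were called higher than ESC and 0 lower, with a median of 3.21, and 24 had risen from day 0. Rsad2, the antiviral enzyme viperin, held 85.7 and 57.2 CPM against 0.209 in ESC (log2 fold change 8.37, SE 0.939, FDR = 0.000967). Irf7, a transcription factor that amplifies the response, held 30.0 and 20.3 CPM against 0.366 (6.08, SE 0.554, FDR = 0.000369), and Ifih1, the RNA sensor MDA5, 18.8 and 13.3 against 0.575 (4.79, SE 0.498, FDR = 0.000663). Isg15, a ubiquitin-like modifier, held 36.1 and 37.0 CPM against 2.30 (3.99, SE 0.615, FDR = 0.00418). Being taken from called genes, they lay above ESC in both libraries, which adds nothing to the calls. In KO at day 10 Isg15 was at 0.818 and 0.959 CPM and Irf7 at 2.14 and 2.22, and both were called lower than in WT (FDR = 0.000178 and 0.000199). Those not called against ESC were Ifit2, Ifit3, Stat2, Irf1, Oas3, Bst2 and Dhx58. Ifit2 was the member with a negative value, at 2.18 and 1.73 CPM against 4.08. Of 17 MHC class I genes, which interferon also raises, 0 were called higher and 0 lower by edgeR or DESeq2 (median against ESC 0.22). At an unadjusted p under 0.05, 0 were higher and 2 lower. With a block for the replicate letter at days 0 and 2 only, edgeR called 8 higher and 3 lower. From day 0, 4 of the 17 had risen, a share near the 3092 of 15087 over all genes. Without day 10 A 14 genes of the list were called higher and without B 18.

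The promoters of 3 of these genes are shown because they hold the core of the ISRE in different places. The RefSeq promoter table (build GRCm38.p6, 250 bases before the start of transcription and 50 after it) had entries for 17 of the 27 genes, while the expression files use mm9. The motif GAAANNGAAA, searched on both strands with overlapping matches allowed, was found in at least one promoter of 11 of the 17, and in 3.44% of all 32851 promoters in the table. Capitals mark the motif, read on the strand shown or as its reverse complement. They are Isg15 at chr4:156200769-156201068 on the minus strand with 3 overlapping matches, Rsad2 at chr12:26456403-26456702 on the minus strand with 1, and Ifit1 at chr19:34640639-34640938 on the plus strand with 2.
Isg15: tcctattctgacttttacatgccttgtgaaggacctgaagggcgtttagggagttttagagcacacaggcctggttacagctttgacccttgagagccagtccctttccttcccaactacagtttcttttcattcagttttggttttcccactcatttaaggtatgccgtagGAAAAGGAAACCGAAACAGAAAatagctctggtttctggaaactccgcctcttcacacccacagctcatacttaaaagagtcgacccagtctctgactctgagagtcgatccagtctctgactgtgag
Rsad2: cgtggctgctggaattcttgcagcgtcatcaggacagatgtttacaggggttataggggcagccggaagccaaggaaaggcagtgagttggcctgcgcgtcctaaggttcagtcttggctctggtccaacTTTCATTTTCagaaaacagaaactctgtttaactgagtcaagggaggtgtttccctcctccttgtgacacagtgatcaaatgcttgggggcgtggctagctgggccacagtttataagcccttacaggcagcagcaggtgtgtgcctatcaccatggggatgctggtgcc
Ifit1: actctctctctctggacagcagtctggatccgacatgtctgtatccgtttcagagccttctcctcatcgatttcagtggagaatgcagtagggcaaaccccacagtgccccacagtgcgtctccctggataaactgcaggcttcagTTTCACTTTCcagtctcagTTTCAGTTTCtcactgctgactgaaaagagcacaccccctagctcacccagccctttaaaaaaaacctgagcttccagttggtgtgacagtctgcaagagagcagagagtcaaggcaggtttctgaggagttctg
Ifit1, an RNA-binding antiviral protein, held 8.88 and 7.27 CPM at day 10 against 0.261 in ESC (FDR = 0.0138) and had 0 counts in both day 0 libraries. Irf7, Irf9, Xaf1 and Oasl2, called higher, had no match in this window, and Bst2, Ifit3, Oas3 and Stat2, which were not called, had at least 1. The Ifit1 call was lost without day 10 A (FDR = 0.0823) or B (0.0545), and that of Oasl2 without A (0.0646).

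**Figure D4:**
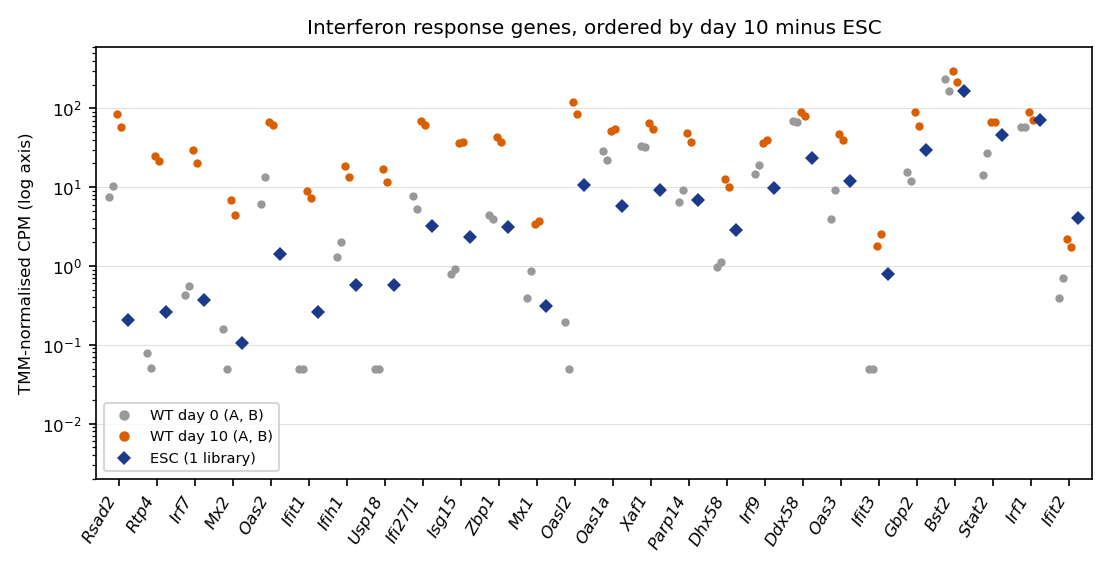
Normalised CPM (log axis) of 26 interferon response genes, ordered by the difference between WT day 10 and ESC. Grey points are WT day 0, orange points WT day 10 (2 libraries each) and blue diamonds the ESC library, and values under 0.05 CPM are drawn at 0.05. Rsad2 at the left stands at 85.7 and 57.2 CPM against 0.209 in ESC.

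Germline genes had been switched on by day 10. Of 34, 33 had risen from day 0, beside 3092 of the 15087 genes tested. Against ESC 4 were called higher and 1 lower (median 0.56), shares near those of all tested genes. Dazl, an RNA-binding protein of germ cells, held 215 and 186 CPM against 8.52 in ESC and 0 counts at day 0 (log2 fold change against ESC 4.56, SE 0.790, FDR = 0.0237). Fkbp6, needed in meiosis and for piRNAs, held 53 and 41.7 CPM against 2.25 (4.39, SE 0.944, FDR = 0.0305), and the testis tubulin gene Tuba3b 7.16 and 7.21 against 0.104, where the near-identical Tuba3a (112 and 95.5 against 18.8 CPM, FDR = 0.0912) can share its reads. Dpep3, a testis dipeptidase, was at 5.66 and 3.33 CPM against 0.366 (FDR = 0.0481). Dnd1, an RNA-binding protein that preserves germ cells, was lower at 6.07 and 5.11 CPM against 26.2 (-2.22, SE 0.437, FDR = 0.0114). The germ cell helicase Ddx4 (13.1 and 9.92 against 31.0 CPM) and the synaptonemal complex gene Sycp3 (10.9 and 6.96 against 26.1) were under ESC in both libraries and not called. Of 8 genes of the X-linked Rhox cluster, 1 was called higher and 0 lower (median 1.64): Rhox2a, with 88 counts over both day 10 libraries and 0 in ESC, at least 15.8-fold higher. Of 11 two-cell-stage genes 0 were called higher and 0 lower by edgeR or DESeq2 (1 and 2 at an unadjusted p under 0.05, median 0.03), with Zscan4f at 5.81 and 6.04 CPM against 7.05. With either day 10 library left out 1 germline gene was called higher and 0 lower. FDR without A and B in turn was 0.112 and 0.0845 for Dazl, 0.135 and 0.0915 for Fkbp6, 0.2 and 0.11 for Dpep3, 0.0681 and 0.067 for Dnd1 and 0.158 and 0.113 for Rhox2a, DESeq2 did not call Dazl, Fkbp6, Dpep3 or Rhox2a, and the Dpep3 call also ended when either KO day 10 library or WT day 2 A was left out (0.0506 to 0.0705).

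Among named genes that met the 2-fold rule, those ranked highest over ESC by edgeR log2 fold change had no count in the stem cell library. That value is not firm where ESC has 0 counts. The bounds given here do not place these genes above genes with a few counts in ESC, such as Kdm5d. Clec2g, a C-type lectin gene, went from 48.9 and 59.4 CPM at day 0 to 36.9 and 30.6, which was at least 217-fold higher than the floor of 3 counts in ESC. Gsta1, a glutathione transferase, was at 22.4 and 21.3 (at least 139-fold), and Vnn3, Tgoln2, Sprr2b and Ly6f, of which Tgoln2 and Sprr2b have near-identical copies that can share reads, were at 14.1 to 24.8 CPM. These 6 genes were already at 6.97 CPM or more in both day 0 libraries. A further 5 of the leading genes were lower there, at under 1 CPM. Xlr5a (23.7 and 25.0 CPM) and Xlr5c (12.9 and 8.38), X-linked genes with near-identical copies that share reads, had 0 counts at day 0. Sp100, a nuclear body component, was at 12.8 and 7.95 CPM, Apol9b at 11.1 and 9.55, and the keratin gene Krt6a at 4.52 and 18.2. The genes named here passed the test, with FDR up to 0.0338 for Xlr5c. Xlr5c lost its call without day 10 A (FDR = 0.142) or B (0.1), and DESeq2 did not call it.

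By calls, genes of other lineages that stood above ESC were mainly Hox and keratinocyte genes. Of 33 Hox genes, which set position along the body axis and are kept silent in stem cells, 12 were called higher and 1 lower (Hoxb3), with a median of 1.83 (1.77 with Hoxa6, at 0 in ESC, at its bound). Hoxa9 held 14.7 and 11.9 CPM against 0.522 in ESC (log2 fold change 4.65, SE 0.522, FDR = 0.000967) and Hoxa10 15.4 and 12.8 against 0.993 (3.82, SE 0.261, FDR = 0.000127), after 27.2 and 30.7 CPM for Hoxa10 at day 0. From day 0, 12 Hox genes had fallen and 3 had risen. Of 12 keratinocyte genes, 6 were called higher and 0 lower (median 2.87), while 1 was at least 2-fold lower in both day 10 libraries. The sum over all 15 genes of that list differed less, at 301 and 332 CPM at day 10, 269 in ESC and 353 and 167 at day 0. Krt14, a keratin of basal skin cells, was at 23.6 and 61.0 CPM against 0.888 (5.56, SE 1.08, FDR = 0.0135), Sprr2a1, whose reads a near-identical copy can share, at 51.3 and 29.9 against 1.36 (FDR = 0.00126), and the keratinocyte cadherin gene Dsg3 had 103 counts against 0, at least 18.5-fold higher. Of 10 trophectoderm genes (median 0.64), 2 were called higher and 0 lower: Gata2, at 20.1 and 25.0 CPM against 4.28, and Tead4, at 50.5 and 44.8 against 10.8 (FDR = 0.00584 and 0.000977). Hox genes called higher numbered 6 without day 10 A and 8 without B, with 0 lower. Hoxb3 was not called without A (FDR = 0.111) or B (0.135), nor without either KO day 10 library (0.0516 for both), and 4 keratinocyte genes were called without A and 5 without B.

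Of 15 primitive endoderm genes (median -0.23), 1 was called higher and 0 lower. It was Srgn, a proteoglycan gene also used by blood cells, at 74.4 and 52.6 CPM against 0.313 (log2 fold change 7.63, SE 0.692, FDR = 0.000359), while the endoderm factor Gata6 was at 1.97 and 2.40 against 1.04 (FDR = 0.261). Neural genes were split, with 3 of 13 called lower and 2 higher (median -0.80). Pax6, a neural and eye factor, was at 0.623 and 0.308 CPM against 7.05 (-3.88, SE 0.590, FDR = 0.00389), and the neuronal tubulin gene Tubb3 at 19.7 and 28.8 against 82.4 (FDR = 0.037). Immune genes had 2 of 9 called higher and 2 lower (median 0.80), and endothelial genes 2 of 11 higher and 0 lower (median 0.05). Csf1r, the macrophage growth factor receptor, was at 5.71 and 7.15 CPM against 0.679 (FDR = 0.0266), while the other 2 immune markers checked, Ptprc and Tyrobp, had 0 counts at day 10. Vwf, a clotting factor of endothelium, was at 51.6 and 42.3 CPM against 9.56 (FDR = 0.0288). Without day 10 A the lists of neural, immune and endothelial genes had 0, 0 and 1 called higher and 1, 0 and 0 lower, and without B 2, 1 and 1 higher and 1, 0 and 0 lower. The calls of Tubb3 (FDR = 0.197 and 0.102), Csf1r (0.0951 and 0.0917) and Vwf (0.137 and 0.0773) were lost without day 10 A or B.

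Most cell cycle genes lay close to the stem cell level. Of 24 cell cycle genes 21 were within 2-fold, with 3 called lower and 1 higher (median -0.43). Ccne1, cyclin E, which is high in mouse ESCs, was at 58.7 and 66.7 CPM against 326 (log2 fold change -2.38, SE 0.214, FDR = 0.000358), and the cyclin gene Ccnd2 at 88.7 and 69.7 against 36.4 (1.12, SE 0.239, FDR = 0.0155). Of 16 genes of cell cycle inhibition and the p53 response, 3 were called higher and 1 lower (median 0.17). Cdkn1a, the inhibitor p21, was at 293 and 262 CPM against 78.8 (1.82, SE 0.314, FDR = 0.00671), and the proapoptotic Bbc3 at 35.8 and 28.2 against 64.5 (-1.01, SE 0.209, FDR = 0.0142). The Ccnd2 call was lost without day 10 A (FDR = 0.0921) and with length corrected (0.114), and that of Bbc3 without B (0.11). Cell cycle genes called lower and higher numbered 1 and 0 without A and 1 and 1 without B, and 1 gene of the p53 list was called higher without A, without B or without either KO day 10 library.

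Of 22 glycolysis and hypoxia genes, 4 were called higher and 2 lower (median -0.36), and isoforms of the same step went opposite ways. The phosphofructokinase gene Pfkp was at 342 and 345 CPM against 86.7 (1.99, SE 0.229, FDR = 0.00106) and Pfkl at 172 and 194 against 413 (-1.18, SE 0.307, FDR = 0.0326). Hexokinase Hk1 was at 328 and 255 CPM against 61.3, and Pdk1, which limits entry of pyruvate into the mitochondrion, at 52.8 and 57.0 against 215 (-1.97, SE 0.260, FDR = 0.002). Of 19 cholesterol genes, 4 were called lower and 0 higher (median -0.66), among them Mvd (27.2 and 28.0 against 89.4 CPM), Lss (32.4 and 33.0 against 91.1) and Sqle (80.2 and 97.1 against 164), all 3 being enzymes of sterol synthesis. Of 19 ATF4 stress genes, 1 was called lower (Chac1, 7.99 and 7.33 against 19.9 CPM) and 0 higher (median -0.15). Cholesterol genes called lower numbered 1 without day 10 A and 2 without B. Without day 10 A and B in turn FDR was 0.166 and 0.128 for Pfkl, 0.068 and 0.068 for Mvd, 0.0733 and 0.0475 for Lss, 0.201 and 0.0724 for Sqle and 0.126 and 0.153 for Chac1. Pfkl was also lost without WT day 2 B (0.0518), and Sqle without WT day 0 A or B, WT day 2 A or either KO day 10 library (0.0514 to 0.0587).

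Y-linked genes stood above the stem cell library. Of 7 tested, 6 were called higher at day 10 and 0 lower, with a median of 5.37 (2.52 with genes at 0 in ESC at their bounds). Kdm5d, a histone demethylase, held 35.8 and 30.8 CPM and 1 count in ESC, a ratio of 641 (95% counting interval 115 to 25300). Ddx3y, an RNA helicase, was at 67.5 and 69.5 CPM against 16.4, Eif2s3y, a translation factor subunit, at 68.9 and 70.9 against 36.8, and Uty, a relative of Kdm6a, at 27.8 and 25.8 against 12.9 (FDR = 0.0107, 0.0124 and 0.0243). These 4 were at similar levels at day 0, and 0 of the 4 had been called different from it. Usp9y and Zfy1, germ cell genes, had 0 counts at day 0 and 4.31 and 3.33, and 13.1 and 17.7 CPM at day 10. Usp9y had 0 counts in ESC and was at least 24.6-fold higher. Pre-iPSCs and ESCs came from different cell sources, and source and state cannot be told apart in this comparison. Of these genes 4 were called without day 10 A and 5 without B, with FDR = 0.0589 and 0.0515 for Eif2s3y and 0.106 and 0.0492 for Uty.

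**Figure D5:**
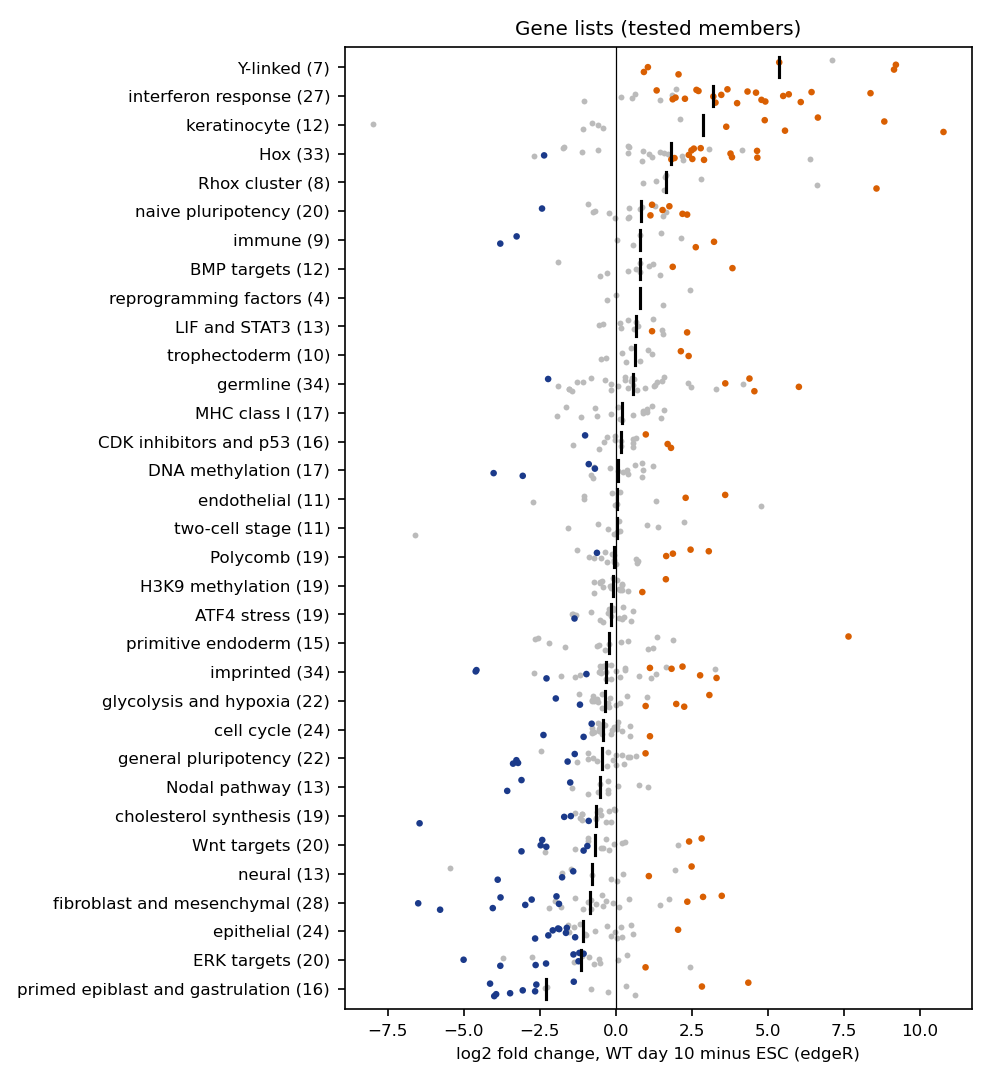
Log2 fold change of WT day 10 minus ESC (edgeR) for each tested member of the 33 gene lists, ordered by the list median. Each point is a gene, grey where not called, orange where called higher and blue where called lower, black bars are medians, and the number of tested members stands in parentheses. Interferon genes have a median of 3.21 and primed epiblast genes of -2.30.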

How the data were processed

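RNA was sequenced as single-end libraries of 12 pre-iPSC samples and 1 ESC sample. The expected counts per gene were deposited by the authors, made with RSEM and Bowtie2 on mm9 per the submitters' processing notes, with versions not given in the sources used here. The TPM values and transcript lengths in the same deposited tables came from the same estimation by the authors, and were used here for mean transcript length and the length correction. An expected count shares reads that map to several genes between them, so near-identical genes are uncertain.

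Expected counts were rounded and fitted with edgeR 4.0.16 (R 4.3.3), with a quasi-likelihood model over all 13 libraries in 7 groups, TMM factors, genes kept by filterByExpr (15087 of 20325) and Benjamini-Hochberg adjustment over all tested genes. The contrast was WT day 10 minus ESC, and a gene was called at FDR under 0.05. Residual degrees of freedom were 6 and the common biological coefficient of variation was 0.269. On simulated counts with 14710 genes this contrast called 5.97% of genes changed 2-fold, 37.3% of those changed 4-fold and 83.3% of those changed 8-fold, and 4 of 14510 unchanged genes. There all but the changed genes were set equal in WT day 10 and ESC. The share changed was thus far below the 16.0% called in the data, which makes the adjusted threshold stricter. Recovery in the data themselves was not measured. CPM used TMM factors. The fold rule asked for at least 2-fold in both day 10 libraries and at least 5 CPM on the higher side, with a prior count of 2. A gene at 0 was set against a floor of 3 counts, and ratios of 1 to 3 counts carry exact 95% intervals, both of which cover counting error only.

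Depth of the 3 libraries ran from 15460134 to 20083825 expected counts. The genes named were the 12 furthest from ESC in each direction among those called and past 2-fold, leaving out unnamed transcripts, then, from each list, at most 4 genes at a mean of 1 CPM or more, taken in order of FDR, and all members of the reprogramming factor, naive and Y-linked lists. Other list members given as examples, Mid1 and the remaining Xlr genes were chosen after their values were seen. The members and the 33 lists (630 of 639 entries found, some genes on several lists) were chosen with earlier results of these data known. DESeq2 1.42.0 was an alternative, as were other scalings, filters, sets of libraries and leaving out each library. Results for a few genes are not reported here.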

Additional observations from a re-analysis of the deposited data

Results flagged for a closer look

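For 5 of the named genes WT and KO cells at day 10 were called on opposite sides of the ESC library, and the difference between KO and WT was also called by edgeR. That last call adds little, since genes chosen for lying on opposite sides of the same library in the same fit differ between WT and KO. Pecam1, an adhesion molecule of naive cells and endothelium, was at 205 and 187 CPM in WT, 5.41 and 3.48 in KO and 57.8 in ESC (KO minus WT -5.46 on the log2 scale, SE 0.291, FDR = 3.98e-05). Tbx3 was at 109 and 122 CPM in WT, 12.3 and 5.39 in KO and 25.3 in ESC (-3.71, FDR = 0.000375). Dazl, a germ cell gene, was at 215 and 186 CPM in WT, 1.89 and 0.42 in KO and 8.52 in ESC (-7.44, FDR = 0.00171). DESeq2 did not call Dazl in WT at day 10 against ESC. Vwf was at 51.6 and 42.3 CPM in WT, 1.32 and 0.719 in KO and 9.56 in ESC (-5.52, FDR = 0.000259). Pim2, a kinase gene of the primed epiblast list, went the other way, at 24.3 and 32.0 CPM in WT, 257 and 242 in KO and 73.4 in ESC (3.15, FDR = 8.52e-05). The WT side of the call against ESC was lost without WT day 10 A for Tbx3, Dazl, Vwf and Pim2 (FDR = 0.0778, 0.112, 0.137 and 0.0664), and without B for Tbx3, Dazl and Vwf (0.0691, 0.0845 and 0.0773).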

How the results depend on the processing

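The count of genes called between WT day 10 and ESC depended on how the spread was estimated. It was 2416 (1405 higher, 1011 lower) over all libraries, 8222 (4214, 4008) with the day 10 and ESC libraries, and 8568 (4363, 4205) with the 3 libraries compared. Leaving out 1 library gave totals from 759 (without WT day 10 A) to 2750 (without KO day 2 A), with 508 to 1608 higher and 251 to 1142 lower. The same ranges were 3483 to 5803 for KO day 10 against ESC, 2944 to 5300 for WT day 10 against day 0 and 2569 to 4945 for KO against WT at day 10. By fold, 500 genes were higher and 278 lower at 4-fold, 230 and 121 at 8-fold, and 1416 were lower at 2-fold with a minimum of 1 CPM.

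The replicate letters correlated among day 0 and day 2 groups (0.71 to 0.79) but not with day 10 (-0.0525 to 0.0487). The main fit held no block, so the difference shared at days 0 and 2 stayed in the spread lent to the ESC library. With a replicate block 4245 genes were called (2399, 1846), and with the block at days 0 and 2 only 8706 (4427, 4279). The MHC class I list had 1 called higher and 2 lower under the first and 8 and 3 under the latter, against 0 and 0 with no block. Other scalings, no filter, WT and ESC libraries only, DESeq2 and the length correction kept the counts within 1.5 times. Of 168 named genes 122 were called, 79 of them in all 22 alternatives, and 43 lost their call without WT day 10 A or B. 0 of the 122 changed sign in any of the 22. With 1 ESC library, and with the difference between letters at days 0 and 2 left in the spread, a gene not called may still differ.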

Other observations

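Genes of the Xlr family, X-linked genes with near-identical copies that share reads, were almost silent in ESC and at day 0 and present in WT at day 10. Of 10 tested, 9 were called higher than ESC by edgeR, beside 9.31% of all tested genes, the exception being Xlr (1.61 and 3.08 CPM against 0.209, FDR = 0.0688). Since the copies share reads and the family was chosen after its values were seen, the 9 calls are not separate observations. Xlr3c was at 68.1 and 75.1 CPM against 0.261 in ESC and 0 and 0.151 at day 0 (log2 fold change against ESC 8.06, FDR = 0.00222), Xlr3a at 43.7 and 54.3 against 0.366 (7.04, FDR = 0.000451) and Xlr5b at 34.5 and 36.1 against 0.0522 (9.23, FDR = 0.00224). In KO at day 10 these 3 were at 0.0599 to 1.20 CPM. Without WT day 10 A or B the calls of Xlr3b, Xlr4b, Xlr4c and Xlr5c were lost, with FDR of 0.058 to 0.142.

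By chromosome, the median log2 fold change of WT day 10 minus ESC was -0.252 over 615 genes of chromosome 8 and between -0.115 and 0.122 on the other autosomes and X. On chromosome 8 the median was -0.182 for WT at day 0, -0.202 for KO at day 10 and -0.205 with length corrected, all against the same ESC library. In KO at day 10 the median of 735 genes on chromosome 5 was 0.453 against ESC, where WT day 10 had 0.037. Gene copy number was not measured.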
